A study of Homo sapiens with 12 samples.

Results

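The 1086 constructs described here carried one gene-targeting sgRNA in both positions of a dual-sgRNA cassette, and they are called self-paired below. They were chosen by name alone, as the constructs whose first and second sgRNA names were identical and were not those of a non-targeting control. They make up 1086 of the 1301881 constructs of the library, 1 for each of the 2 sgRNAs of 543 genes. The library joined 1141 sgRNAs with one another in both orders, among them 55 non-targeting controls. Each gene sgRNA therefore also occurred in 110 constructs with a non-targeting partner, 55 in each order, and once in each order with the other sgRNA of its gene. The comparison of self-paired with non-targeting-partner constructs asks how the abundance of a cassette changes when the sgRNA occupies both positions, measured at T0, during growth and under niraparib.

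All libraries came from a CRISPR interference derivative of K562, a line established from human chronic myelogenous leukemia, after lentiviral delivery of the library and puromycin selection. Each of 2 screens (2022 and 2023) had 2 replicate cultures, which were sampled at T0, 9 days after transduction, and then divided into a reference arm with the vehicle DMSO and a niraparib arm. The 2022 screen used 2 µM niraparib for 3 days, with harvest at day 18. The 2023 screen began at 2 µM, went to 3 µM on day 2 of treatment, ended treatment after 4 days and was harvested at day 19. The 4 cultures are listed below in the order 2022 replicate 1, 2022 replicate 2, 2023 replicate 1 and 2023 replicate 2. All groups share 1 cell line and 1 cloned library, and repression of the targets was not measured. The knockdown given by 1 or by 2 copies of a sgRNA is thus unknown.

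In CRISPR interference a catalytically inactive Cas9 fused to a repressor is brought by a sgRNA to the start of a gene, where it blocks transcription and leaves the DNA uncut. Cells whose cassette represses a gene they need are lost from the pool, and the share of reads of that cassette falls. Niraparib inhibits PARP1 and PARP2, which sense DNA breaks, and holds PARP1 on DNA. Cells that lack homologous recombination or other steps of break repair tolerate this poorly, and cells with little PARP1 tolerate it well.

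The names of the sgRNAs give the target gene, a strand and a position on a genome build that is not given in the sources used here. A sgRNA is identified below by those 3 items. The deposited tables analysed here hold names and read counts, and no protospacer letters are printed.

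The 12 libraries held 182.6 to 460.7 megareads. The median self-paired construct had 83 to 214 reads in a library, against 100 to 258 over all constructs. Averaged over the T0 libraries, self-paired constructs had a median of 129 reads and a range of 0 to 616. Of the 1086 members, 999 reached the minimum of 30 reads that the tests required and 87 did not, with values of 29.5 and 30 just below and just above it. They left 471 genes with both sgRNAs, 57 with 1 and 15 with none, so 528 genes were tested. All log2 values are relative to the summed reads of the 3025 constructs with 2 non-targeting sgRNAs. The value for growth is reference minus T0 and the value for the niraparib response is niraparib minus reference, so both contain the reference count of a construct, with opposite sign. The difference is self-paired minus non-targeting-partner in the same culture, and n = 4 counts the cultures. The cultures are replicates of the screen and not of the library, and without molecular identifiers PCR reads are not independent molecules, so intervals from counts alone cover counting error only.

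At T0, before any drug was given, self-paired constructs were scarcer than the same sgRNAs next to a non-targeting partner. The log2 ratio of the self-paired count to the mean count of the partner constructs had a median of -0.81 ± 0.02 (SD, n = 4), which is 56.9% of the partner level. The medians of the 4 T0 libraries were -0.82, -0.83, -0.78 and -0.82. The ratio was below 0 for 1059 of 1086 sgRNAs (97.5%). Its middle range over sgRNAs, from the 25th to the 75th percentile, was -1.21 to -0.53. The shortfall was seen in all 4 libraries at nearly the same size, and no test was made on it, since the cultures share the library.

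The controls that target no gene had a similar shortfall. Non-targeting sgRNAs paired with themselves stood at -0.69 ± 0.02 (SD, n = 4) against their constructs with other non-targeting sgRNAs, or 62.2%, and 54 of 55 were below 0. Constructs with 2 different sgRNAs of 1 gene stood higher, at -0.25 ± 0.03, or 83.9% of the mean of the partner constructs of both sgRNAs. For the 364 sgRNAs whose growth with non-targeting partners was between -0.2 and 0.1, and so near neutral, the self-paired median was -0.74 ± 0.02, or 60.0%. For the 172 genes whose mean was in that range, constructs with 2 different sgRNAs stood at -0.02 ± 0.02, or 98.7%. Among sgRNAs with growth of -2 or lower, 70 in number, the self-paired ratio was -0.81 ± 0.05. Between these ends it was lower in part, at -0.91 ± 0.05 for 263 sgRNAs at -2 to -1 and -0.927 ± 0.025 for 197 at -1 to -0.5. For 173 sgRNAs at -0.5 to -0.2 it was -0.75 ± 0.04. Constructs with 2 different sgRNAs stood at -0.56 ± 0.11 for 130 genes with mean growth of -2 to -1. They stood at -0.47 ± 0.03 for 113 genes at -1 to -0.5 and -0.30 ± 0.05 for 31 at -2 or lower. Across the 999 tested sgRNAs the T0 ratio had a Pearson r of 0.022 with growth next to non-targeting partners, as a description over sgRNAs that share libraries and depth. The same ratio in the 2022 and 2023 screens had r = 0.871 over those sgRNAs, which went into both screens from 1 library. Between the screens, the growth difference described below had r = 0.433 and the response difference r = 0.119 over the same sgRNAs. sgRNAs on the plus strand stood at -0.80 and those on the minus strand at -0.82.

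The abundance of an sgRNA in each position entered this ratio. When the expected count was the product of the mean counts of the sgRNA in the first and in the second position, a comparison chosen after seeing the data, the median was -0.66 ± 0.02 for gene sgRNAs and -0.66 ± 0.06 for non-targeting ones. With this expectation the 364 near-neutral sgRNAs stood at -0.75 ± 0.02 and the 70 sgRNAs with growth of -2 or lower at -0.08 ± 0.03, so these strata then differed.

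The largest shortfalls and excesses were those of single sgRNAs. The minus-strand sgRNA of XRN1, a 5′ to 3′ exoribonuclease, at position 142166648 had 1, 0, 0 and 0 T0 reads in the 4 cultures, while its partner constructs averaged 58.6, 56.2, 36.4 and 37.7. That single read is 0.53% of the 189 expected over the 4 libraries, with an exact Poisson 95% interval of 0.013% to 2.95%. The minus-strand sgRNA of DCTN5, a dynactin subunit, at position 23652769 had 9, 7, 0 and 0 reads against partner means of 84.7, 86.5, 58.5 and 56.0. The sgRNA of NDUFA9, a subunit of respiratory complex I, at position 4758351 on the plus strand had 6, 4, 5 and 3 reads. Its constructs averaged 9.25 reads when it was first and 219 when it was second. The minus-strand sgRNA of IARS2, the mitochondrial isoleucyl-tRNA synthetase, at position 220267478 had 3, 0, 2 and 0 reads against partner means of 31.5, 32.1, 26.2 and 27.1. With the product of both positions as the expectation, the sgRNAs of XRN1, DCTN5, NDUFA9 and IARS2 stood at -2.63, -2.60, -0.54 and -0.68. The median of all gene sgRNAs was then -0.66.

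At the other end, both sgRNAs of NOP10, a protein of the H/ACA ribonucleoproteins, were more abundant self-paired than with partners. The NOP10 sgRNA at position 34635306 on the plus strand had 612, 480, 408 and 393 reads against means of 426, 428, 315 and 325, a log2 ratio of 0.34 ± 0.15 (SD, n = 4). The NOP10 sgRNA at position 34635309 had 415, 395, 296 and 332 reads and a ratio of 0.20 ± 0.06. The RHOXF2 sgRNA at position 119292827 on the plus strand stood at 0.24 ± 0.16. With the product of both positions as the expectation these excesses became shortfalls. The NOP10 sgRNAs at positions 34635306 and 34635309 then stood at -0.23 and -0.11, and that of RHOXF2 at -0.77. The SARS sgRNA at position 109756585 ranks among the highest only through the added read: it had 0 reads in all 4 T0 libraries and a mean below 1.1 with partners. None of the lowest 4 and not the SARS sgRNA reached the T0 minimum for the tests that follow.

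In growth without drug, a sgRNA that depleted the cassette next to a non-targeting partner depleted it further when it filled both positions. A line through the 999 sgRNAs, of self-paired growth on growth with non-targeting partners, had a slope of 1.31 ± 0.02 (SD, n = 4), with values of 1.32, 1.30, 1.33 and 1.30 in the cultures. The same line for single non-targeting-partner constructs, each against the other partners of its sgRNA, had a slope of 1.03 ± 0.002 over 117685 constructs. In the 353 sgRNAs with partner growth between -0.2 and 0.1, the self-paired value differed from it by a median of 0.01 ± 0.03. The median difference was -0.10 ± 0.06 for 168 sgRNAs with partner growth of -0.5 to -0.2 and -0.31 ± 0.03 for 176 sgRNAs at -1 to -0.5. It was -0.44 ± 0.04 for 226 sgRNAs at -2 to -1, -0.52 ± 0.06 for 43 at -3 to -2 and -0.83 ± 0.28 for 15 below -3. For the 15 sgRNAs below -3 the medians of the cultures spread from -0.46 to -1.11. In 18 sgRNAs with partner growth above 0.1 the median difference was 0.10 ± 0.07. Non-targeting sgRNAs paired with themselves differed from their other constructs by -0.29 to 0.30, with a median of 0.03.

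The gene-level test found the self-paired constructs lower in growth for 156 of 528 genes and higher for 8, by edgeR's quasi-likelihood test at an adjusted p of 0.05. Over all 583 entries of that fit, which also held the 55 non-targeting controls, 26.8% were called lower and 1.37% higher, and of the genes 29.5% and 1.52%. None of the 55 controls was called, with 2 at an unadjusted p under 0.05. All 156 genes called lower had growth below 0 with non-targeting partners. Their median was -1.13 with partners and -1.66 self-paired, and 144 of them were lower in every culture. Among genes with partner growth of -1 to -0.5 the test called 55 of 110 lower, at -2 to -1 65 of 111, at -3 to -2 14 of 20, and below -3 all 5. Between -0.2 and 0.1 it called 3 of 174 lower and 4 higher. The median difference over all 528 genes was -0.12.

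These counts depended on scaling and on single cultures. With TMM normalization on top of the offset the median difference over genes moved to 0.01, and 92 genes were called lower and 53 higher, with 11 of the 55 controls also higher. DESeq2 called 68 lower and 31 higher, with 8 controls higher. All 92 and all 68 were among the 156. Leaving out 2022 replicate 1 left 76 genes lower and 1 higher, and leaving out 2022 replicate 2 left 92 and 1. Without 2023 replicate 1 there were 108 and 7, and without 2023 replicate 2 there were 124 and 3. The call was kept in all 4 of these fits for 58 of the 156 genes and for none of the 8.

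Among genes with the same sign in all cultures, SSBP1, the single-strand DNA-binding protein of mitochondria, had the lowest difference. One of its sgRNAs was tested. Self-paired growth was -3.39, -3.66, -5.09 and -3.51, and growth with partners was -2.0, -2.04, -2.11 and -2.14, so the groups did not overlap. The fitted difference was -1.88 ± 0.44 (SE; edgeR adjusted p = 0.000263). These values rest on 11, 7, 1 and 7 reads in the reference libraries, against 50, 44, 42 and 61 at T0. The fit to the 2022 screen alone gave an adjusted p of 0.064.

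CAD, which carries out the first steps of pyrimidine synthesis, had the lowest growth with non-targeting partners. Those values were -3.86, -3.88, -4.41 and -4.51, and self-paired growth was -4.88, -4.57, -6.04 and -6.30. The fitted difference was -1.83 ± 0.53 (SE; edgeR adjusted p = 0.00398), beyond the mean of -1.28 ± 0.51 over the cultures (SD, n = 4). The self-paired culture values have 1 added read, which the fit does not use. The reference libraries of CAD held 9, 9, 1 and 1 reads. Without 2023 replicate 2 the adjusted p was 0.054.

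DCTN3, of the dynactin complex that works with the dynein motor, and DBR1, which debranches intron lariats, had more reads and kept their call in all 16 alternatives. DCTN3 had self-paired growth of -4.10, -3.33, -5.24 and -4.56 and partner growth of -2.79, -2.75, -3.25 and -3.27. DBR1 had self-paired growth of -3.11, -3.53, -4.54 and -3.08 and partner growth of -2.13, -2.19, -2.38 and -2.39. In both genes every self-paired value lay below every partner value. As fold changes of the means, DBR1 fell 11.9-fold self-paired and 4.83-fold with partners, and DCTN3 19.8-fold and 8.08-fold. The other genes of this rank were GTF2B, RRP12, RIOK1 and PSPH. GTF2B, a general transcription factor with 1 sgRNA tested, had a difference of -1.11. RRP12 and RIOK1, which act in maturation of the ribosomal subunits, had -1.10 and -1.05, and PSPH, the last enzyme of serine synthesis, -1.03. RIOK1 lost its call without 2022 replicate 2, at an adjusted p of 0.11 in edgeR.

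Of the 10 genes with the lowest growth next to non-targeting partners, 9 were tested and 8 were called lower. NOP10 stood at -2.72 ± 0.23 (SD, n = 4) with partners and -3.23 ± 0.25 self-paired, with differences of -0.54, -0.47, -0.61 and -0.44 in the cultures and 96 to 310 reads in the reference libraries. It was one of 19 genes that kept the call in every alternative. HJURP, the chaperone of the centromeric histone, went from -3.23 ± 0.19 to -4.22 ± 0.92, with the self-paired value above the partner value in 2023 replicate 2. MCM2, of the replicative helicase, went from -3.18 ± 0.20 to -4.14 ± 0.94, with the self-paired value above the partner value in 2023 replicate 1. IPO13, an importin, went from -2.72 to -3.53, GEMIN2, of the SMN complex, from -3.05 to -3.64, and DNMT1, the maintenance DNA methyltransferase, from -2.88 to -3.43. HJURP, GEMIN2, MCM2, IPO13 and DNMT1 each lost the call without 2022 replicate 1, with adjusted p of 0.134, 0.093, 0.218, 0.0536 and 0.175, and each also lost it without 1 of the 2023 cultures. DKC1, the pseudouridine synthase of the same particle as NOP10, stood at -2.81 ± 0.18 and -3.19 ± 0.29 and did not pass (difference -0.41 ± 0.21, SE; edgeR adjusted p = 0.135). NOL6, the remaining gene of this group, had both sgRNAs under the T0 minimum.

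Of the 21 tested genes for the replicative helicase, clamp loader and polymerases, 13 were called lower and 1 higher, beside 29.5% and 1.52% of all tested genes, with a median difference of -0.49 beside -0.12. The median partner growth of the list was -0.92, and of all tested genes with partner growth of -1 to -0.5 and of -2 to -1, 55 of 110 and 65 of 111 were called lower. This list and the others below were chosen with earlier results of these data known. MCM6 of the helicase had self-paired growth of -2.77, -2.50, -3.20 and -2.61 and partner growth of -1.87, -1.74, -1.98 and -2.04, a difference of -0.90 ± 0.22 (SE; edgeR adjusted p = 0.000406). RFC4 of the clamp loader had differences of -0.83, -0.30, -1.09 and -0.66. With TMM 8 of these genes were lower and 2 higher, and with DESeq2 4 and 2. The gene called higher was CDC45, at 0.00 ± 0.02 (SD, n = 4) with partners and 0.19 ± 0.20 self-paired, below 0 in 2022 replicate 1 at -0.06. Of 3 tested proteins of rRNA processing and H/ACA particles, NOP10 and NHP2 were lower, beside 29.5% of all tested genes. Both were also lower under TMM and DESeq2. The median partner growth of this list was -2.72, and 14 of the 20 tested genes at -3 to -2 were called lower.

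Of 25 genes of homologous recombination, 7 were called lower in growth and none higher, near the 29.5% and 1.52% of all tested genes, with a median difference of -0.07 beside -0.12. BRCA2, which acts in strand exchange, went from -1.38 ± 0.54 with partners to -1.81 ± 0.66 self-paired, and BRCA1 from -0.53 ± 0.21 to -0.90 ± 0.32 (SD, n = 4). None of the 7 was called lower with TMM or DESeq2. Of 11 genes of the ATR checkpoint, 3 were lower, also near the share of all genes: ATR (-1.62 to -2.22), CHEK1 (-0.58 to -1.13) and RAD17 (-0.79 to -1.23). With TMM 2 were lower and 1 higher, and with DESeq2 none was lower and 1 was higher. XRCC5, of the end-joining factor Ku, was the only 1 of 6 end-joining genes called lower, and RNASEH2A the only 1 of 3 RNase H2 subunits, beside 29.5% of all genes. XRCC5 kept the call in none of the 4 fits that left out a culture and RNASEH2A in 3. Neither was called with TMM or DESeq2.

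Of the remaining lists, none of 5 genes of PARP1 and ADP-ribose turnover, 6 that mend damaged bases and single-strand breaks, 10 of the 53BP1 and shieldin axis, 5 structure-specific nucleases and 4 of mitochondrial one-carbon metabolism was called in growth by edgeR, and none had an unadjusted p under 0.05. DESeq2 called 1 shieldin-axis gene higher and none of the others, and TMM called 3 shieldin-axis genes and 1 of base excision repair higher. Of 16 Fanconi anemia genes 1 was called, FANCD2, higher, beside 29.5% lower and 1.52% higher of all tested genes. FANCD2 stood at -0.34 ± 0.12 with partners and -0.03 ± 0.24 self-paired (SD, n = 4), but was lower self-paired in 2023 replicate 1. With TMM 4 Fanconi genes were called higher, and with DESeq2 2.

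Self-paired growth was higher in all 4 cultures, with a call, for PNRC2, MOSPD2, MTF2, GPS2, RRAGD and TSC1. These differences were small. All but that of PNRC2 lay within the range of -0.29 to 0.30 seen for self-paired non-targeting sgRNAs. GPS2, a subunit of the NCoR and SMRT corepressor complexes, had growth of 0.40, 0.47, 0.58 and 0.57 with partners and 0.62, 0.72, 0.84 and 0.71 self-paired, so every self-paired value was above every partner value. The difference was 0.22 ± 0.06 (SE; edgeR adjusted p = 0.00193). TSC1, which restrains mTORC1, had 0.08, 0.12, 0.16 and 0.16 with partners and 0.29, 0.24, 0.28 and 0.35 self-paired, also without overlap, and a difference of 0.16 ± 0.05 (SE; adjusted p = 0.00761). MTF2, of Polycomb complex PRC2, differed by 0.24 ± 0.08, with 0.10, 0.22, 0.53 and 0.10 in the cultures. PNRC2, which links RNA decay factors and had 1 sgRNA tested, differed by 0.31 ± 0.12. MOSPD2, a membrane contact site protein, differed by 0.28 ± 0.09. RRAGD, a Rag GTPase, differed by 0.17 ± 0.06. Each of the 6 lost its call without 2022 replicate 1 (adjusted p 0.0596 to 0.256), and all but MOSPD2 also lost it without at least 1 other culture. C12orf66 (KICS2), of the KICSTOR complex that restrains mTORC1, had the highest growth with partners, and 1 of its sgRNAs was tested. It stood at 0.78 ± 0.13 with partners and 0.80 ± 0.15 self-paired (SD, n = 4), a difference of 0.03 ± 0.06 (SE; edgeR adjusted p = 0.78). CBL, at 0.38 with partners, differed by 0.06 ± 0.07. With TMM both of these were called higher, at adjusted p of 0.030 and 0.035.

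Single self-paired constructs were tested beside 117685 single constructs with a non-targeting partner, each against the other partners of its sgRNA. In growth 53 of 999 self-paired constructs (5.31%) were lower and none higher by edgeR, with 278 at an unadjusted p under 0.05 in either direction. By the same unadjusted threshold 11349 of the 117685 non-targeting-partner constructs passed. Of the non-targeting-partner constructs 0.346% were lower and 0.322% higher, and over the whole fit 0.387% were lower and 0.319% higher. DESeq2 called 34 self-paired constructs lower and none higher. The 53 came from 48 genes, and 5 of these genes had both sgRNAs among them. Their median difference was -0.82, and 51 were lower in all 4 cultures. The count was 5 without 2022 replicate 1, 6 without 2022 replicate 2 and 17 without either of the 2023 cultures. For 47 of the 53, growth with partners was below -0.5.

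The lowest single construct was the RIOK1 sgRNA at position 7390078 on the minus strand. It had 99, 96, 102 and 80 T0 reads and 15, 3, 3 and 0 reference reads, while its partner constructs averaged 128, 127, 102 and 103 reads at T0 and 43.8, 35.1, 15.8 and 14.1 in reference. The DBR1 sgRNA at position 137893738 on the plus strand had 117, 145, 97 and 96 T0 reads and 32, 31, 3 and 28 reference reads, against partner means of 193, 164, 76.6 and 71.2 in reference. The PSPH sgRNA at position 56119260 on the plus strand had 100 to 155 T0 reads and 111, 95, 35 and 21 reference reads. Its partners averaged 339, 280, 131 and 124 in reference, more than the self-paired construct in each culture, and 265, 266, 181 and 182 at T0.

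Under niraparib the self-paired constructs again took the value of the sgRNA with partners further from 0 where that value was below -0.5. The slope of self-paired on partner response over the 999 sgRNAs was 1.30 ± 0.02 (SD, n = 4), against 1.02 for single partner constructs. For the 10 sgRNAs with a partner response below -2 the median difference was -0.76 ± 0.16, and for 33 sgRNAs at -2 to -1 it was -0.35 ± 0.06. For 65 sgRNAs at -1 to -0.5 it was -0.19 ± 0.11, with -0.06 in 2022 replicate 1. For 119 sgRNAs at -0.5 to -0.2 it was -0.06 ± 0.05, with 0.01 in 2022 replicate 1. On the resistant side the median was 0.10 ± 0.05 for 171 sgRNAs at 0.1 to 0.3 and 0.09 ± 0.06 for 166 above 0.3. For the 435 sgRNAs between -0.2 and 0.1 it was 0.02 ± 0.06. Self-paired non-targeting sgRNAs differed by -0.35 to 0.40, with a median of 0.02.

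The gene-level test called 19 of 528 genes lower and 8 higher in the niraparib response by edgeR, where 3.26% of the 583 entries were lower and 1.37% higher, and of the genes 3.6% and 1.52%. None of the 55 controls was called, with 6 at an unadjusted p under 0.05 by edgeR and none called by DESeq2. All 19 had a response below 0 with partners, with a median of -0.92, and stood at a median of -1.26 self-paired. DESeq2 called 12 lower and 5 higher, all among these genes, and gave no adjusted p for 6 of the 27. Leaving out 2022 replicate 1 gave 8 lower, of which 7 were among the 19, and 1 higher, and leaving out 2022 replicate 2 left 8 and 2. Without 2023 replicate 1 there were 16 and 5, of which 10 and 3 were among the original calls, and without 2023 replicate 2 there were 11 and 4. Centring on self-paired non-targeting constructs gave 21 lower and 2 higher. WDHD1, XRCC1, C19orf40, SLX4 and FANCL kept the call when each culture was left out, and XRCC1 kept it in all 16 alternatives.

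XRCC1 is the scaffold of single-strand break repair, bound by PARP1 products and by DNA polymerase beta. Its response was -1.19, -1.58, -1.77 and -1.78 with partners and -1.56, -2.18, -2.88 and -3.21 self-paired. Self-paired values were lower in each culture, and the groups overlapped across cultures. The difference was -0.90 ± 0.11 (SE; edgeR adjusted p = 4.05e-12). Self-paired reads went from 708, 1003, 477 and 520 in reference to 175, 176, 74 and 58 under niraparib, a 5.5-fold fall of the mean against 2.99-fold with partners. Its growth was -0.40 in each kind of construct (difference 0.00 ± 0.10, SE).

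In the same list of 6 genes for mending damaged bases and single-strand breaks, 3 were called lower, beside 3.6% of all tested genes. The median difference was -0.34 beside 0.02, and the median partner response of the list was -1.26. Of all 19 tested genes with a partner response of -2 to -1, 6 were called lower, with a median difference of -0.31. Of the 31 at -1 to -0.5, 4 were called lower, with a median difference of -0.17. DNPH1, which breaks down the damaged nucleotide hydroxymethyl-deoxyuridine monophosphate, went from -1.83 ± 0.10 to -2.24 ± 0.26 (SD, n = 4), with differences of -0.05, -0.77, -0.26 and -0.55. Its call was lost without 2022 replicate 2 and without 2023 replicate 2, at adjusted p of 0.43 and 0.12. POLB, the polymerase of base excision repair, went from -1.90 ± 0.19 to -2.23 ± 0.36 and did not pass (edgeR adjusted p = 0.0645), but was called with TMM, at 0.0463.

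Of 25 homologous recombination genes, 3 were called lower and none higher, beside 3.6% and 1.52% of all tested genes, and 20 had a difference below 0, beside 234 of all 528 genes. The median partner response of this list was -0.64. Of all tested genes with a partner response of -1 to -0.5, 27 of 31 had a difference below 0. At -0.5 to -0.2 it was 45 of 66, so the 20 of 25 do not set the list apart. BARD1, the partner of BRCA1, had the lowest response of all tested genes with partners: -2.93, -3.73, -3.84 and -3.92. Self-paired it stood at -4.95, -3.93, -4.49 and -5.78, with differences of -2.02, -0.19, -0.65 and -1.85, so that it was lower in every culture, by little in 2022 replicate 2. The fitted difference was -1.11 ± 0.29 (SE; edgeR adjusted p = 0.00761), on 3, 18, 7 and 2 niraparib reads against 167, 362, 154 and 156 in reference. The call was lost without 2022 replicate 1 and without 2023 replicate 2, at adjusted p of 0.22 and 0.17. PALB2, which joins BRCA1 to BRCA2, had -0.72, -1.0, -1.07 and -1.06 with partners and -0.90, -1.29, -1.78 and -1.41 self-paired (difference -0.39 ± 0.11, SE; adjusted p = 0.0133). RAD54L, a motor protein of strand exchange, went from -1.46 ± 0.47 to -1.79 ± 0.63 (SD, n = 4) and was called. PALB2 and RAD54L each kept the call in only 1 of the 4 fits that left out a culture.

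BRCA2 and BRCA1 had stronger partner responses than PALB2 and did not pass. BRCA2 had -1.39, -2.43, -2.69 and -2.69 with partners and -1.24, -3.64, -3.86 and -2.83 self-paired, so that 2022 replicate 1 differed in sign from the rest (difference -0.57 ± 0.20, SE; edgeR adjusted p = 0.0736). Without that culture it was called, at 0.024. BRCA1 had -1.70, -1.98, -2.04 and -2.16 with partners and -2.04, -1.85, -2.16 and -3.78 self-paired (difference -0.37 ± 0.14, SE; adjusted p = 0.114), and was called without 2023 replicate 1, at 0.0053. RBBP8 (CtIP), which starts resection of broken ends, differed by -0.28 ± 0.21 (SE).

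Of 16 Fanconi anemia genes, 4 were called lower and none higher, beside 3.6% and 1.52% of all tested genes, with a median difference of -0.26 beside 0.02. The median partner response of the homologous recombination list was -0.64 and that of the Fanconi list -0.79, and of all tested genes with a partner response of -1 to -0.5, 12.9% were called lower. C19orf40 (FAAP24), which binds DNA with FANCM, had responses of -1.18, -1.36, -1.40 and -1.45 with partners and -1.88, -2.48, -2.08 and -2.28 self-paired, without overlap (difference -0.84 ± 0.12, SE; edgeR adjusted p = 1.54e-09). FANCI, of the clamp that is ubiquitinated at crosslinks, went from -0.95 ± 0.17 to -1.56 ± 0.30 (SD, n = 4), and FANCL, the ubiquitin ligase of the pathway, from -0.44 ± 0.06 to -1.02 ± 0.40. FANCI lost the call without 2022 replicate 1, at 0.077. FANCC went from -0.32 ± 0.07 to -0.58 ± 0.19 and kept the call in none of the 4 fits that left out a culture. FANCB, at -1.56 with partners, differed by -0.27 ± 0.15 (SE) and did not pass.

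WDHD1, a replisome protein that couples the helicase to polymerase alpha, had the lowest response difference of all. Its response was -0.91, -1.40, -1.64 and -1.74 with partners and -2.30, -2.76, -3.49 and -2.37 self-paired, without overlap (difference -1.40 ± 0.27, SE; edgeR adjusted p = 2.64e-05). It was the only 1 of 21 replisome genes called in the response, where 3.6% of all tested genes were lower and 1.52% higher. SLX4, a scaffold of structure-specific nucleases, had -0.84, -1.12, -1.10 and -1.11 with partners and -1.78, -1.93, -2.16 and -1.53 self-paired, also without overlap (difference -0.82 ± 0.16, SE; adjusted p = 2.7e-05). For WDHD1 and SLX4 DESeq2 gave no adjusted p, and the 2023 screen alone gave an edgeR adjusted p of 0.0924 for each. CDK12, a kinase of transcription elongation, went from -0.32 ± 0.03 to -0.90 ± 0.30 (SD, n = 4) and kept the call in none of the 4 fits that left out a culture. Of 11 ATR checkpoint genes only ETAA1, an activator of ATR, was called (difference -0.24 ± 0.07, SE), beside the same shares of all tested genes. ETAA1 kept the call in 1 of the 4 fits that left out a culture. Other genes among the 19, named after their values were seen, included GMNN, a licensing inhibitor of replication (difference -0.52). The COP9 signalosome subunits COPS5 (-0.44) and COPS4 (-0.41), the ubiquitin ligase TRAIP (-0.41) and PNRC2 (-0.36, with 1 sgRNA tested) were named in the same way. GMNN and COPS4 were not lower in 2022 replicate 1, at 0.12 and 0.06. Of the 4 fits that left out a culture, GMNN kept the call in 2, COPS5 and TRAIP in 1, and COPS4 and PNRC2 in none.

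PARP1, the target of the drug, had the highest response with partners: 2.62, 1.80, 2.09 and 2.09. Self-paired it stood at 3.15, 2.06, 2.35 and 2.14, higher in every culture, by 0.53, 0.26, 0.26 and 0.05. The difference was 0.28 ± 0.06 (SE; edgeR adjusted p = 0.00124). Reads rose from 346, 669, 328 and 317 in reference to 2254, 2223, 1941 and 1464, a 5.36-fold rise of the mean against 4.43-fold with partners. The call was lost without 2022 replicate 1 and without 2023 replicate 1, at adjusted p of 0.28 and 0.070. PARP2, the smaller enzyme that the drug also inhibits, stood at 0.08 ± 0.03 with partners and 0.22 ± 0.20 self-paired (SD, n = 4; difference 0.13 ± 0.07, SE; adjusted p = 0.264). TP53BP1, which opposes resection of broken ends, stood at 0.22 ± 0.22 and 0.02 ± 0.17 and did not pass (adjusted p = 0.287).

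None of the other 9 genes with the highest responses next to non-targeting partners was called. Among them SHMT2, of mitochondrial serine and one-carbon metabolism, differed by 0.20 ± 0.17 (SE) and CYB5B by 0.31 ± 0.14. CAD had a fitted difference of 1.20 ± 0.64 (SE) on the few reads given above. Its mean difference over the cultures was 0.73 ± 0.38 (SD, n = 4). The genes called higher in all 4 cultures included GRSF1, PDCD2, UTP23 and PARP1. Of the 8 genes called higher, 5 were called lower in growth, and of the 19 called lower 4 were called lower and 1 (PNRC2) higher in growth. The part of the shared reference count in this was not tested. No gene of the end-joining, shieldin, RNase H2, one-carbon, mTORC1 or rRNA lists was called in the response by edgeR or DESeq2, with 3 shieldin-axis, 2 RNase H2 and 1 one-carbon genes at an unadjusted p under 0.05. These lists held 6, 10, 3, 4, 2 and 3 tested genes. Of all tested genes 3.6% were called lower and 1.52% higher by edgeR, so the absence of calls does not set such short lists apart.

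Of single self-paired constructs, 9 of 999 (0.901%) were lower in the response and none higher, with 116 at an unadjusted p under 0.05 in edgeR. By the same unadjusted edgeR threshold 10804 of the 117685 non-targeting-partner constructs passed, a share near that of the self-paired ones. Of single non-targeting-partner constructs 0.0595% were lower and 0.0425% higher, and over the whole fit 0.0665% and 0.0421%. DESeq2 called 6 lower and none higher. The 9 came from 8 genes, and all were lower than with partners in every culture. The count was 5 without 2022 replicate 1, 2 without 2022 replicate 2 and 5 without 2023 replicate 1. The sgRNAs were both of XRCC1 and 1 each of NAMPT, BARD1, COPS5, LRRC45, C19orf40, DDX11 and FANCI.

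The 2 XRCC1 sgRNAs, both on the minus strand, differed in strength. The one at position 44079668 had responses of -2.97, -4.51, -5.35 and -6.16 self-paired and -2.38, -3.12, -3.37 and -3.40 with partners, and went from 149, 372, 175 and 204 reference reads to 13, 12, 4 and 2 under niraparib. The one at position 44079606 had -1.33, -1.61, -2.31 and -2.54 self-paired and -0.87, -1.09, -1.28 and -1.27 with partners. Self-paired, the weaker XRCC1 sgRNA thus stayed above the partner value of the stronger one in each culture.

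The minus-strand sgRNA of NAMPT, the main enzyme of NAD salvage, at position 105925335 had 77, 80, 49 and 35 reads in reference and 2, 0, 0 and 0 under niraparib. Its response with partners was -2.83, -2.93, -3.06 and -3.07. The 2 reads are 7.27% of the 27.5 expected from that response, with an exact Poisson 95% interval of 0.881% to 26.3%, and the fitted value of such a construct is no bound. The other NAMPT sgRNA, at position 105925444, stood at -1.69 ± 0.29 self-paired and -1.61 with partners (SD, n = 4). The plus-strand BARD1 sgRNA at position 215674388 went from 91, 172, 46 and 50 reference reads to 0, 3, 0 and 1, which is 12.3% of the 32.4 reads expected from its response with partners (3.36% to 31.6%). The other BARD1 sgRNA, at position 215674399, had the lower response with partners, -4.13, and stood at -4.22 self-paired. The LRRC45 sgRNA at position 79981566 went from 335, 572, 314 and 269 reads to 53, 47, 26 and 43, with a response of -2.97 ± 0.68 self-paired and -1.89 ± 0.36 with partners. The other LRRC45 sgRNA stood at 0.11 self-paired and -0.01 with partners. The DDX11 sgRNA at position 31226729, which targets a helicase of replication and sister chromatid cohesion, stood at -1.79 ± 0.33 against -1.07 ± 0.28.

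A self-paired construct and a construct with both sgRNAs of a gene each hold 2 sgRNAs against 1 gene. The 2 kinds were compared for 995 sgRNAs, where both sgRNAs of a gene share the second kind. In growth, 249 sgRNAs (25%) were less depleted self-paired than in the pair of different sgRNAs and 30 (3.02%) were more depleted, by edgeR. The median difference of the 249 was 1.00 and that of the 30 was -0.73. In the 471 genes with both sgRNAs tested, 168 of the sgRNAs with the weaker partner growth were higher self-paired and 2 lower, and of the stronger 68 were higher and 26 lower. Which sgRNA is weaker was read from growth with non-targeting partners, and no test of the split was made. With TMM 159 were higher and 112 lower, and with DESeq2 167 and 77. Leaving out 1 culture gave 188 to 212 higher and 9 to 19 lower, the lowest of these 9 without 2022 replicate 1.

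Over all 471 genes, the weaker sgRNA self-paired stayed above the stronger sgRNA with a non-targeting partner in 300 by the mean, and in all 4 cultures in 132. The pair of different sgRNAs was below the weaker self-paired construct in 384 of the 471 and below the stronger one in 261. In 78 genes the weaker and the stronger sgRNA were at least 0.5 apart with partners, and the weaker was at -0.2 or lower, with median growth of -0.90 and -1.77 next to non-targeting partners. Their self-paired medians were -1.32 ± 0.14 and -2.35 ± 0.16 (SD, n = 4), and the pair of different sgRNAs had -2.32 ± 0.24. In these 78, whose choice by that gap favours this order, the weaker sgRNA self-paired stayed above the stronger sgRNA with a partner in 63, and in all 4 cultures in 42. The pair of different sgRNAs was below the weaker self-paired construct in 70 of 78 genes and below the stronger one in 28.

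Some of the sgRNAs with large differences, named after their values were seen, were the following. The 2 sgRNAs of PPCS, the second enzyme of coenzyme A synthesis, had growth of -1.76 and -1.90 with partners, -2.69 ± 0.66 and -1.97 ± 0.59 self-paired, and -5.94 in the pair of both. The sgRNA of PPCDC, the next enzyme of that pathway, at position 75316009 stood at -1.47 ± 0.33 self-paired and -5.13 ± 0.49 in the pair. The sgRNA of CTCF, the insulator protein, at position 67596939 stood at 0.01 with partners, 0.09 ± 0.39 self-paired and -2.62 in the pair, and that of PSMD13, a proteasome subunit, at position 237424 at 0.00, 0.12 ± 0.22 and -3.02. In the opposite direction, the GEMIN2 sgRNA at position 39583560 stood at -4.58 ± 1.22 self-paired and -2.70 in the pair.

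In the niraparib response 35 sgRNAs (3.52%) were higher self-paired than in the pair of different sgRNAs and 11 (1.11%) lower. With TMM 20 were lower. Leaving out 1 culture gave 18 to 34 higher, with 21 without 2022 replicate 2 and 18 without 2023 replicate 1, and 4 to 9 lower, with 4 without 2022 replicate 1 and 7 without 2023 replicate 2. The BRCA2 sgRNA at position 32889750 on the minus strand stood at -1.75 with partners, -2.19 ± 1.05 self-paired and -5.12 ± 1.27 in the pair (SD, n = 4). Its self-paired value differed from the pair by 2.96 ± 0.45 (SE; edgeR adjusted p = 4.85e-06). The BRCA2 sgRNA at position 32889673 stood at -3.93, -5.12 ± 1.44 and the same -5.12. For DDX11 the sgRNA at position 31227168 stood at -0.48 with partners, -0.38 ± 0.09 self-paired and -2.58 in the pair, and both DDX11 sgRNAs were higher self-paired. Both sgRNAs of FANCE, which bridges the Fanconi core complex to its substrate, were also higher self-paired, at -0.71 and -0.44 against -1.89. XRCC1 was split: its sgRNA at position 44079606 was higher self-paired than in the pair (-1.95 against -3.27) and that at position 44079668 lower (-4.75). The LRRC45 and NAMPT sgRNAs named above and that of COPS5, the catalytic subunit of the COP9 signalosome, at position 67974325 were also lower self-paired.

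Against the non-targeting controls alone, 581 of 999 self-paired constructs were lower in growth and 16 higher by edgeR, in a fit of 1267355 constructs of which 81.3% were lower and 0.84% higher. Self-paired non-targeting constructs had none lower and 1 of 55 (1.82%) higher. Constructs with 1 gene sgRNA and 1 non-targeting sgRNA were lower in 59.9% and higher in 1.4% of cases, and those with 2 different sgRNAs of a gene in 70.7% and 1.37%. These growth counts depended on scaling: with TMM 227 self-paired constructs were lower and 526 higher, and with median-of-ratios size factors 241 and 514. In the response 167 were lower and 131 higher, where 19.8% of all constructs were lower and 14.4% higher, and 81 were higher without 2023 replicate 1 and 82 without 2022 replicate 1. The lower shares of self-paired constructs, 58.2% in growth and 16.7% in the response, were below those of all constructs, most of which carry sgRNAs against 2 genes. Their higher shares were 1.6% and 13.1%. In the response, 17.2% of the constructs with 1 gene sgRNA and 1 non-targeting sgRNA were lower and 12.6% higher, of those with 2 different sgRNAs of a gene 19.1% and 14.1%, and of the 55 self-paired non-targeting constructs 1 (1.82%) and 3 (5.45%). Self-paired constructs also had fewer reads than the others, and the part of depth in these shares was not tested.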

How the data were processed

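Each of 12 libraries was a PCR product of genomic sgRNA cassettes, and the deposited tables give raw read counts per dual-sgRNA construct, per the labels' protocols and the file headers. Bowtie2 2.3.4.1 is named in the submitters' processing notes without its role, and the genome build of the positions in sgRNA names is not given in the sources used here. Columns were mapped to samples by name, and 0 were left unmapped. The members and gene lists were chosen with earlier results of these data known.

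Log2 values used 1 added read and the summed reads of the 3025 constructs with 2 non-targeting sgRNAs. Tests were edgeR 4.0.16 quasi-likelihood fits in R 4.3.3 with limma 3.58.1, Benjamini-Hochberg adjustment over the whole fit and a threshold of 0.05. Members with a mean T0 count under 30 (87 of 1086) were not tested. In the gene and sgRNA tests the offset was the count of the same sgRNA with non-targeting partners, so a fitted difference is relative to it. Each fit had a block for each culture, except that of self-paired against different sgRNAs, which had a block for each library. The pairing comes from the labels, which say that each T0 culture was divided into the drug and vehicle arms. Deviations of same-numbered libraries from their group means had correlations of 0.0107 to 0.1001 over 999 sgRNAs. Growth and response had separate terms for each screen, so a difference between the screens does not enter the error. The gene, sgRNA and all-construct fits left 4 residual degrees of freedom, and the fit against different sgRNAs left 6. The p-values thus measure the spread between replicate cultures within a screen, all of 1 cell line, and do not cover disagreement between the screens. The biological coefficient of variation was 8.94% in the gene fit, 11.0% in the sgRNA fit, 11.1% against different sgRNAs and 13.5% over all constructs.

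Genes were named by a rule: up to 8 with the lowest and 8 with the highest difference among those past the threshold with 1 sign in all 4 cultures, the 10 lowest and 10 highest with non-targeting partners, members of the lists, and the 4 sgRNAs at each end of the T0 ratio. Some genes that meet the rule are not reported here. Where the text says so, genes were named after their values were seen. The single sgRNAs in the comparisons of single constructs and with different sgRNAs of a gene were named in that way too.

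On simulated counts the gene growth fit of 583 entries recovered 100% of log2 changes of -1 and of 1, 94% of -0.5 and 92% of 0.5, with 4 false calls among 383. The sgRNA growth fit of 118739 entries recovered 94% of -1, 98% of 1, 28% of -0.5 and 24% of 0.5, and the growth fit against different sgRNAs (995 entries) 98%, 96%, 36% and 44%. The growth fit of 1267355 constructs recovered 70% of -1, 80% of 1 and 2% of either smaller change. The simulated counts had a single biological coefficient of variation in each fit and the same change in every culture. Recovery and false calls under spread that differs between genes, cultures or screens were not tested. Alternatives were other scalings, DESeq2 1.42.0, T0 minimums of 0 and 100 reads, single screens, positions and sgRNAs, no block, and each culture left out. The T0 product of both positions and the slopes with at least 100 T0 reads were added after seeing the data.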

Additional observations from a re-analysis of the deposited data

Results flagged for a closer look

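The niraparib response difference between self-paired and non-targeting-partner constructs was itself compared between the screens, which differed in dose and duration. By an interaction term in edgeR, 3 of 528 genes differed after adjustment, with 69 at an unadjusted p under 0.05, and 0 of 528 differed in growth, with 26 unadjusted; DESeq2 called 0 in either. CARS2, the mitochondrial cysteinyl-tRNA synthetase, had differences of 0.30 and 0.52 in the 2022 cultures and of -0.85 and -0.33 in the 2023 cultures, so that 2023 minus 2022 was -0.995 (edgeR adjusted p = 0.0424). For CARS2 the sign turned with the second sgRNA alone, at 0.99. NHEJ1, an end-joining factor, had 0.79 and 0.61 in 2022 and -0.24 and -0.26 in 2023, a change of -0.958 (edgeR adjusted p = 0.0318). PSMA8, a proteasome subunit of germ cells, had 0.23 and 0.39 in 2022 and -0.44 and 0.00 in 2023, a change of -0.524 (edgeR adjusted p = 0.0212). With centring on self-paired non-targeting constructs the adjusted p of CARS2, NHEJ1 and PSMA8 were 0.0797, 0.0797 and 0.094, with TMM 0.0866, 0.0862 and 0.0866, with DESeq2 0.36 each and without the replicate block 0.0552 each. Among the fits that left out a culture, only that without 2023 replicate 2 kept a call, for CARS2 at 0.0198 and PSMA8 at 0.00143, and the largest adjusted p of the others was 0.53. Groups of 2 cultures were too small for a search for single outlying libraries.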

How the results depend on the processing

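By sign, 154 of the 156 genes lower in growth, all 8 higher, and all 19 lower and 8 higher in the response stayed on their side in every alternative that gave a value. Their calls depended more on the setting. Genes lower in growth (156) numbered 92 with TMM, 68 with DESeq2, 92 in 2022 alone, 53 in 2023 alone, 93 and 84 with the first or second sgRNA alone, and 76 to 124 with a culture left out. Genes higher in growth (8) numbered 53, 31, 5, 0, 2 and 3 in the same settings, and 1 to 7. Genes lower in the response (19) numbered 12 with DESeq2, 5 in 2022 alone, 6 in 2023 alone, 9 with the non-targeting partner second, 9 with the second sgRNA alone, and 8 to 16 with a culture left out. Genes higher in the response (8) numbered 2 with centring on self-paired controls, 5 with DESeq2, 0 in 2023 alone, 2 with the partner second, 3 and 2 with the first or second sgRNA alone, and 1 to 5. Single self-paired constructs lower in growth (53) numbered 34 with DESeq2 and 5 to 17 with a culture left out, and in the response (9) 2 to 6. Against different sgRNAs of a gene, those lower in growth (30) numbered 112 with TMM, 77 with DESeq2 and 9 to 19 with a culture left out, those higher (249) 159 with TMM and 188 to 212, those lower in the response (11) 20 with TMM and 4 to 9, and those higher (35) 18 to 34. Among all constructs, members lower in growth (581) numbered 227 with TMM, 241 with median-of-ratios factors and 373 with at least 100 T0 reads, and those higher (16) 526 and 514 with these scalings. The response count higher (131) was 81 to 98 with a culture left out. The T0 ratio of -0.81 was -0.77 with the median of partners, -0.77 for members with at least 30 reads and -0.66 with the product of positions. The growth slope of 1.31 was 1.28 with at least 100 T0 reads. The causes of these changes were not tested, apart from the smaller number of libraries or genes where a culture, screen, sgRNA or low counts were left out. Without the replicate block 149 genes were lower and 8 higher in growth, 16 and 6 in the response, and 38 single constructs were lower in growth, so the pairing moved none of these counts by over 1.5 times. Of the non-targeting-partner constructs, 43 in place of 70 were then lower in the response. For single genes and the slopes, 741 alternatives left the call or value as it was, 144 ended a call, 15 made one and 1, the growth slope above, moved. Depth limits the strongest members most: those with under 10 reads left in an endpoint have fitted values that rest on few reads.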
